A study of Mus musculus with 8 samples.

Results

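The AP-1 transcription factors of the Fos and Jun families were followed in the uterus and the brain of mice in early pregnancy. The 7 genes were the entries of the deposited count table with the symbols Fos, Fosb, Fosl1, Fosl2, Jun, Junb or Jund, out of 19884 genes in all. Total RNA came from whole uterus (4 libraries) and whole brain (4 libraries) of wild-type C57BL/6J females aged 6 to 10 weeks. The mice had been mated with fertile males, received no treatment, and were killed on day 4 of gestation, with the day of the vaginal plug as day 1. Finding blastocysts in the uterine flush established pregnancy, so both organs came from pregnant animals, and no sample of a nonpregnant animal is part of the comparison. Whole organs mix many cell types, and in such samples fewer cells of a type and less RNA per cell cannot be told apart.

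AP-1 is a dimer held together by leucine zippers, and it binds the DNA sequence TGACTCA. Jun proteins pair with one another or with Fos proteins, whereas Fos proteins need a Jun partner. Fos, Fosb, Jun and Junb are immediate early genes, whose mRNA appears within minutes of growth factor, hormone or synaptic signals without new protein synthesis and is quickly degraded. Jund is transcribed more steadily. In rodents Fos is widely used as a marker of recently active neurons, and oestrogen induces Fos and Jun mRNA in the uterus.

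The promoters of Fos, Fosb, Junb and Jun are shown because the first 3 genes differed most between brain libraries, as described further on, and Jun did not. Each is the RefSeq sequence of the 250 bases before the annotated start, on build GRCm38.p6, 5′ to 3′ on the strand of the gene. Capitals mark matches, on either strand, to 6 motifs. They were the AP-1 site TGACTCA, its variant TGACATCA, the CREB site TGACGTCA, the shorter CREB core TGACG that is contained in it, the TATA box TATAAA, and the CArG box bound by serum response factor. The motifs were chosen after the windows had been read. The windows lie at chr12:85473640-85473889 (plus strand) for Fos, chr7:19310046-19310295 (minus strand) for Fosb, chr8:84978749-84978998 (minus strand) for Junb and chr4:95052223-95052472 (minus strand) for Jun.
Fos: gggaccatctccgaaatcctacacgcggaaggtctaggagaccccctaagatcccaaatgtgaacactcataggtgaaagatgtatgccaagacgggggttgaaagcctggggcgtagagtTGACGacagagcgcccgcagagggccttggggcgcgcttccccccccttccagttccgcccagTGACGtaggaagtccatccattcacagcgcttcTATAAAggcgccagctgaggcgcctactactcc
Fosb: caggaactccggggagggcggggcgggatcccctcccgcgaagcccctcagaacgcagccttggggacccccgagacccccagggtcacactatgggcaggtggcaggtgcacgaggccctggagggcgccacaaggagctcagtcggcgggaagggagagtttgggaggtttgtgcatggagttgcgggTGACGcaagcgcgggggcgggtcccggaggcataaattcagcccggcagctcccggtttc
Junb: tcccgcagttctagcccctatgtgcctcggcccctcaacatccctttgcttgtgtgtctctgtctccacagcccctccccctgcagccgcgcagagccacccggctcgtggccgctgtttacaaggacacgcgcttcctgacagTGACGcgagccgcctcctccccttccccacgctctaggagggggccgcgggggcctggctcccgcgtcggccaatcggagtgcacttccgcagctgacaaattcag
Jun: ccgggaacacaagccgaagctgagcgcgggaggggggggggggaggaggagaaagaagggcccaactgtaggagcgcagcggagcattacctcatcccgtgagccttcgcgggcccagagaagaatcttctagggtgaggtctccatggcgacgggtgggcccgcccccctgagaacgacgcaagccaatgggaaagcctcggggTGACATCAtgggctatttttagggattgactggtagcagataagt
The Fos window held TGACG at 129 to 125 and at 66 to 62 bases before the start, and TATAAA at 33 to 28 bases before it. TGACG stood at 60 to 56 bases before the start in Fosb and at 106 to 102 bases in Junb. Jun instead had TGACATCA, a variant of the AP-1 site, at 45 to 38 bases. Among 32851 mouse promoter windows of the same length, 17.8% held TGACG, 12.4% held TATAAA, 2.93% held TGACATCA, 4.46% held TGACTCA, 1.55% held TGACGTCA and 1.47% held a CArG box. The Fosl2 and Jund windows held none of these letters, and their RefSeq starts lie 671 and 1210 bases from the gene starts in the GENCODE annotation. Of the 7 members, 6 had an entry in the promoter table. Fosl1 is named only.

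Uterus libraries held 35394603 to 40254254 counts, and brain libraries 40115616 to 47790178. The lowest count of any member was 125, for Fosl1 in uterus library 1, so all 7 members passed the filter on low counts and were tested. Markers fitted both labels. The 6 neuronal markers summed to 3.35 to 7.23 CPM in uterus libraries, against 5860 to 6006 CPM in brain libraries (CPM, the count relative to the library total, with totals scaled by TMM). Uterine stroma markers summed to 7808 to 9848 CPM in uterus libraries, against 82.1 to 86.9 CPM in brain libraries. Uterine gland markers varied widely among the uterus libraries, at 223, 1191, 378 and 77.7 CPM in libraries 1 to 4, and summed to 0.554 to 1.16 CPM in brain.

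In the comparison of the organs, Fosl2, Jun and Jund were higher in uterus, Fosb and Fosl1 were higher in brain, and Fos and Junb did not pass the test. Fosl2 was 4.73-fold higher in uterus and Fosb 3.16-fold higher in brain, and these were the only members past a test against a 2-fold change. Jun and Jund were 1.46-fold and 1.54-fold higher in uterus, and Fosl1 was 1.66-fold higher in brain. Thus 5 of 7 members were called by the edgeR quasi-likelihood test with Benjamini-Hochberg adjustment, beside 87.0% of the 16074 genes tested. By direction, 3 members were higher in uterus beside 43.5% of all genes, and 2 were lower beside 43.6%. In the 2-fold test 2 of 7 were called beside 49.3% of all genes, with 1 higher (23.5% of all genes) and 1 lower (25.8%). The libraries of the organs did not overlap for 5 of 7 members beside 84.1% of all genes, with 3 higher in uterus (42.0%) and 2 lower (42.0%). The members' shares thus lay near or below those of all genes. The median log2 fold change of the members was 0.44, beside 0.012 over all genes tested. All log2 fold changes are uterus over brain with their SE, and means are given with the SD over n = 4 libraries per organ.

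**Figure D1:**
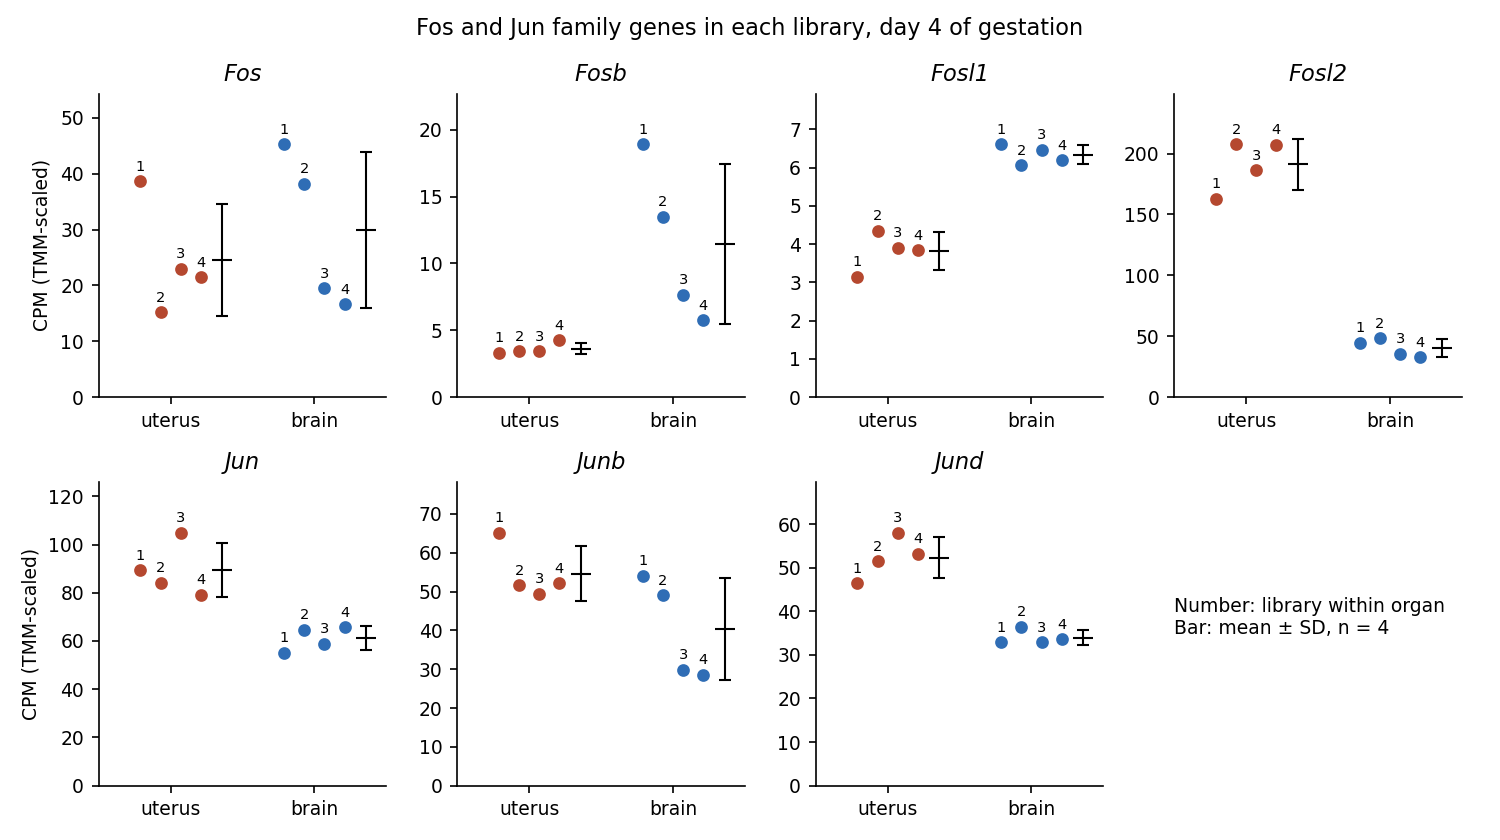
Level of each Fos and Jun family gene in CPM (linear axes from 0, one panel per gene) in the 4 uterus libraries (left of each panel) and the 4 brain libraries (right), with points for libraries and bars for mean and SD. Fosl2 lies at 163 to 208 CPM in uterus and 33.0 to 48.2 CPM in brain, while the points of Fos and Junb overlap between the organs.

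Fos, the founding member of the family (ENSMUSG00000021250, chr12:85473890-85477273, plus strand, GENCODE M21 on GRCm38), had 38.7, 15.2, 23.0 and 21.5 CPM in uterus libraries 1 to 4. The brain libraries 1 to 4 had 45.3, 38.2, 19.5 and 16.7 CPM. The organs overlapped, with the highest value in brain library 1 and the lowest in uterus library 2. Fos averaged 24.6 ± 9.99 CPM in uterus and 29.9 ± 14.0 CPM in brain, and the log2 fold change was -0.28 ± 0.36 (adjusted p = 0.472, edgeR quasi-likelihood test). The limma-voom 95% interval ran from -1.03 to 0.56, so a difference of up to about that size in either direction was not resolved. With brain libraries 2 to 4 and uterus libraries 1 and 3 only, a choice made after the data were seen, the value was 0.33 and again did not pass (adjusted p = 0.406, edgeR). This choice left out libraries whose gland, neuronal or blood markers stood apart. They include the highest brain and the lowest uterus library for Fos, so a shift toward uterus follows from the choice.

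Fosb (ENSMUSG00000003545, chr7:19302696-19310051, minus strand) encodes a close relative of Fos whose truncated splice form accumulates in brain on repeated stimulation. It had 3.32, 3.46, 3.45 and 4.24 CPM in uterus libraries 1 to 4, against 18.9, 13.5, 7.65 and 5.75 CPM in brain libraries 1 to 4. Every brain library lay above every uterus library, but brain library 4 came close to uterus library 4. Fosb averaged 3.62 ± 0.421 CPM in uterus and 11.5 ± 5.97 CPM in brain, and the log2 fold change was -1.66 ± 0.34 (adjusted p = 0.000978, edgeR quasi-likelihood test). Against a 2-fold change the adjusted p was 0.0231 (edgeR glmTreat). The call against 2-fold was lost when brain library 1 (-1.30), brain library 2 (-1.56) or uterus library 1 (-1.60) was dropped. It was also lost when libraries were scaled by their upper quartile (-1.41) or by library size alone (-1.41).

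Fosl1 (ENSMUSG00000024912, chr19:5447547-5455946, plus strand) encodes a Fos-related protein that lacks the transactivation domain of Fos. It had 3.15, 4.35, 3.91 and 3.85 CPM in uterus libraries 1 to 4, against 6.61, 6.07, 6.47 and 6.20 CPM in brain libraries 1 to 4. The organs did not overlap, and the brain libraries lay close together. Fosl1 averaged 3.81 ± 0.498 CPM in uterus and 6.34 ± 0.249 CPM in brain, and the log2 fold change was -0.73 ± 0.13 (adjusted p = 0.000306, edgeR quasi-likelihood test). This value is uncertain. Of its 2033 bases of exon, 1163 are also exon of Ccdc85b on the opposite strand, and the strand setting of the counting is not given in the sources used here. Ccdc85b had 30.4 to 42.6 CPM in uterus and 45.3 to 53.2 CPM in brain, a difference in the same direction (log2 fold change -0.49 ± 0.10). Its part in the Fosl1 value was not tested.

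Fosl2 (ENSMUSG00000029135, chr5:32135801-32157842, plus strand), the other Fos-related gene, showed the largest change of the 7. It had 163, 208, 187 and 207 CPM in uterus libraries 1 to 4, against 44.7, 48.2, 35.6 and 33.0 CPM in brain libraries 1 to 4. The lowest uterus library stood well above the highest brain library. Fosl2 averaged 191 ± 21.1 CPM in uterus and 40.4 ± 7.23 CPM in brain, and the log2 fold change was 2.24 ± 0.13 (adjusted p = 6.5e-08, edgeR quasi-likelihood test). It passed the 2-fold test as well (adjusted p = 1.6e-06, edgeR glmTreat), in every setting in which that test was run, with values from 2.15 to 2.35 when single libraries were left out.

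Jun (ENSMUSG00000052684, chr4:95049034-95052222, minus strand), the main partner of Fos, is a gene of a single exon. It had 89.5, 84.2, 104.9 and 79.3 CPM in uterus libraries 1 to 4, against 55.2, 64.6, 58.8 and 65.7 CPM in brain libraries 1 to 4. The organs did not overlap, and uterus library 3 was highest. Jun averaged 89.5 ± 11.1 CPM in uterus and 61.1 ± 4.95 CPM in brain, and the log2 fold change was 0.55 ± 0.09 (adjusted p = 0.000249, edgeR quasi-likelihood test).

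Jund (ENSMUSG00000071076, chr8:70698949-70700616, plus strand), whose protein slows proliferation in several cell types, also consists of a single exon. It had 46.5, 51.5, 58.1 and 53.2 CPM in uterus libraries 1 to 4, against 32.9, 36.4, 32.9 and 33.7 CPM in brain libraries 1 to 4. The organs did not overlap. Jund averaged 52.3 ± 4.77 CPM in uterus and 34.0 ± 1.70 CPM in brain, and the log2 fold change was 0.62 ± 0.07 (adjusted p = 1.6e-05, edgeR quasi-likelihood test). Of its 1668 bases of exon, 877 are also exon of Gm11175 on the opposite strand, so this value is uncertain as well.

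Junb (ENSMUSG00000052837, chr8:84974484-84978718, minus strand) encodes a Jun protein that can oppose Jun in proliferation. It had 65.2, 51.6, 49.4 and 52.2 CPM in uterus libraries 1 to 4, against 54.0, 49.1, 29.9 and 28.6 CPM in brain libraries 1 to 4. Brain library 1 lay above 3 of the 4 uterus libraries, so the organs overlapped. Junb averaged 54.6 ± 7.15 CPM in uterus and 40.4 ± 13.1 CPM in brain, and the log2 fold change was 0.44 ± 0.21 (adjusted p = 0.0693, edgeR quasi-likelihood test). It did pass with limma-voom (95% interval 0.056 to 0.93), when scaled by the upper quartile (0.69) or by library size alone (0.69), and when brain library 1 (0.62) or 2 (0.55) was dropped. Genes on the opposite strand overlap the exons of all 3 Jun genes, with Junos over 232 bases of Jun, Gm11175 over 877 bases of Jund, and Prdx2 over 173 bases of Junb. Prdx2 was higher in uterus, at 219.6 to 236 CPM against 174 to 179 CPM in brain. Junos and Gm11175 had no entry under these symbols in the deposited count table, so their levels are not given. How these overlaps affect the counts, levels and shares of the Jun family was not tested.

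**Figure D2:**
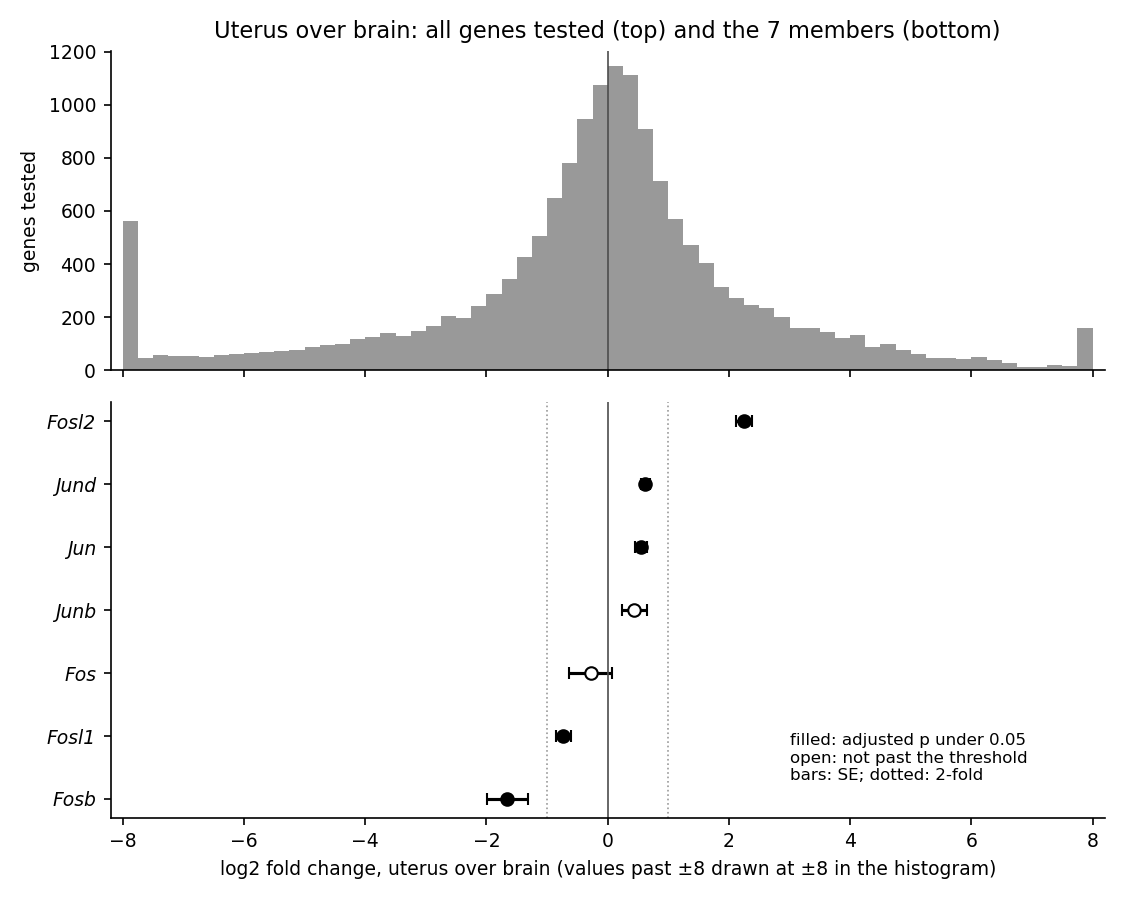
Log2 fold changes, uterus over brain, of all 16074 genes tested as a histogram (top, number of genes; values past 8 are drawn at the edge) and of the 7 members with their SE (bottom). Fosl2 at 2.24 and Fosb at -1.66 lie farthest from 0, and the other 5 members lie between -0.73 and 0.62.

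Levels of different members were compared per kilobase of exon, as RPKM on the same scaled libraries. In uterus the mean order was Jund (31.4 ± 2.86 RPKM), Jun (28.1 ± 3.49), Junb (23.7 ± 3.11), Fosl2 (19.7 ± 2.18), Fos (10.4 ± 4.25), Fosl1 (1.88 ± 0.245) and Fosb (0.580 ± 0.0674 RPKM). This order held in uterus libraries 2 to 4, and in library 1 Junb came first, then Jun and Jund. Neighbours among the 3 Jun genes overlapped in their library values, whereas the values of Fosl2 and Fos did not. Fosl2, at 16.8 to 21.5 RPKM, lay next to Junb, at 21.5 to 28.3 RPKM. The place of Fosl2 below the Jun genes depends on the exon length used. By CPM alone Fosl2 came first in uterus at 191 CPM, before Jun (89.5), Junb (54.6) and Jund (52.3). Its union of exons holds 9680 bases and its longest transcript 6537, so with the latter its level per kilobase would be higher. In brain the mean order was Jund (20.4 ± 1.02 RPKM), Jun (19.2 ± 1.55), Junb (17.6 ± 5.67), Fos (12.7 ± 5.97), Fosl2 (4.17 ± 0.747), Fosl1 (3.12 ± 0.123) and Fosb (1.83 ± 0.956 RPKM). The top 4 changed places between brain libraries. Fos lay below Jund in all 4, at 7.08 to 19.3 RPKM against 19.7 to 21.8 RPKM, while its values overlapped those of Jun and Junb. Fosl2, Fosl1 and Fosb kept their order in every brain library, but the order of Fosl1 and Fosb depends on the exon length. By CPM alone Fosb lay above Fosl1 in brain libraries 1 to 3, at 18.9, 13.5 and 7.65 CPM against 6.61, 6.07 and 6.47 CPM. Per kilobase of exon, Fosl2 thus stood above Fos in all 4 uterus libraries and below it in all 4 brain libraries. By CPM alone Fosl2 lay above Fos in brain libraries 2 to 4, at 48.2, 35.6 and 33.0 CPM against 38.2, 19.5 and 16.7 CPM. In brain library 1 it had 44.7 CPM against 45.3 CPM.

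Within the Fos family level, Fosl2 made up 47.6, 70.1, 61.1 and 64.7% in uterus libraries 1 to 4, against 15.3, 18.9, 22.5 and 23.6% in brain libraries 1 to 4. Fos made up 46.5, 21.1, 31.0 and 27.6% in uterus, against 63.9, 61.6, 50.6 and 49.0% in brain. Fosl2 was thus the largest part in every uterus library and Fos the largest in every brain library, with near equality in uterus library 1. Fosb held 1.78 ± 0.225% in uterus and 8.02 ± 1.54% in brain, and Fosl1 held 5.80 ± 1.09% in uterus and 15.7 ± 5.37% in brain. In the Jun family the means differed by less than the spread between libraries. Jund made up 37.7 ± 3.16% in uterus and 35.9 ± 2.84% in brain, and Jun 33.7 ± 2.34% in uterus and 33.8 ± 4.46% in brain. Junb made up 28.6 ± 3.91% in uterus and 30.3 ± 7.20% in brain. The 7 levels summed to 116 ± 5.15 RPKM in uterus and 78.9 ± 13.1 RPKM in brain. Of these sums, Jun family genes gave 83.1 ± 4.60 RPKM in uterus and 57.1 ± 5.85 RPKM in brain. No test was run on shares or sums. Within the Fos family, the order in brain depends on the length correction. By CPM alone the mean share of Fosl2 was 85.5% in uterus and 47.3% in brain. That of Fos was 11.2% in uterus and 32.6% in brain. In brain that of Fosb was 12.4% and that of Fosl1 7.71%.

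**Figure D3:**
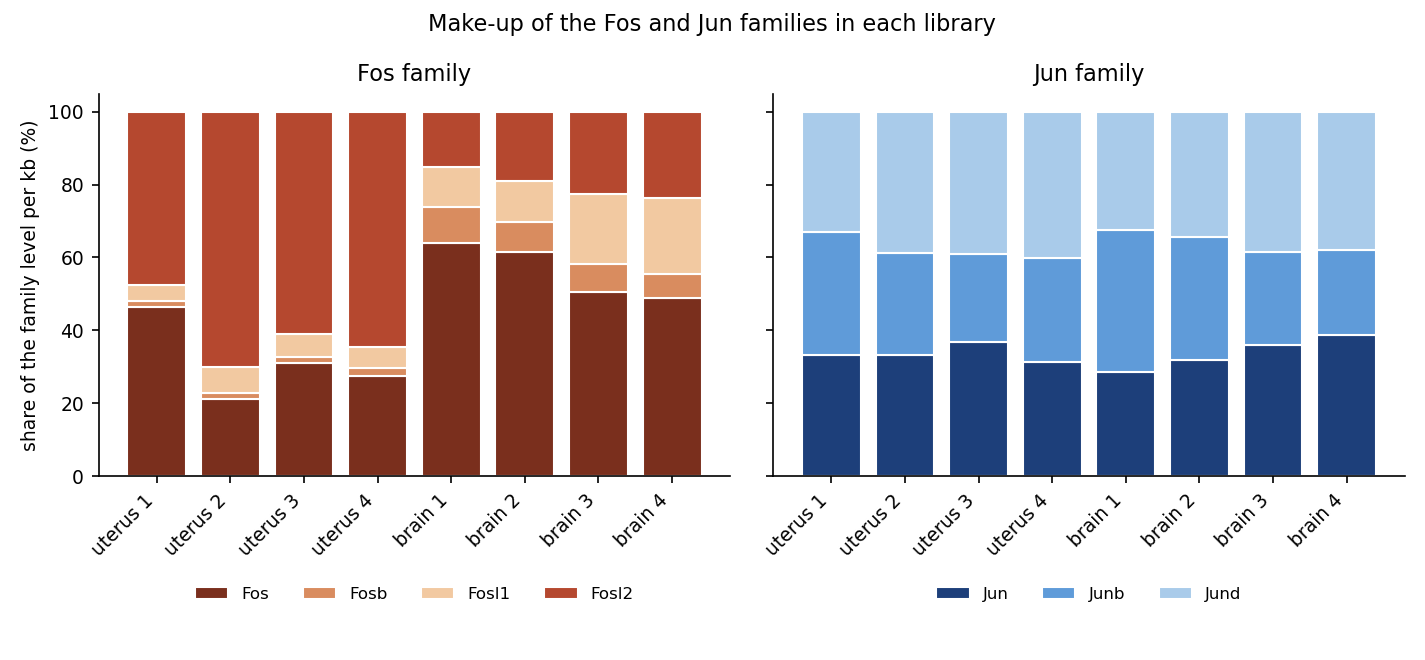
Share of each member in the summed level per kilobase (RPKM) of the Fos family (left panel) and the Jun family (right panel), in percent, with one stacked bar per library, uterus libraries left and brain libraries right. Fosl2 fills 47.6 to 70.1% of the Fos family bars in uterus and 15.3 to 23.6% in brain, while Jun family bars are divided much alike.

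The members differed in how far the libraries of one organ lay apart. In brain the SD of log2 CPM was 0.774 for Fosb, 0.710 for Fos and 0.475 for Junb. These lay at percentiles 99.8, 99.8 and 99.6 among the 10612 genes of 10 CPM or more in brain, whose median SD was 0.079. Fosl2 (0.260, percentile 98.2) also stood above most genes, whereas Jun (0.118, percentile 78.8) and Jund (0.071, percentile 42.9) were lower on this scale. Without brain library 2 the SD of Jund was 0.020. The highest brain library exceeded the lowest 3.29-fold for Fosb, 2.72-fold for Fos and 1.89-fold for Junb. Fos, Fosb and Junb shared their order of brain libraries, library 1 being highest and library 4 lowest for each.

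In uterus the SD was 0.556 for Fos, at percentile 98.3 among 10571 genes, and 0.321 without uterus library 1. For Fosl2, Jun, Junb and Jund the uterine SDs were 0.132 to 0.179 (percentiles 66.2 to 79.8, beside a median SD of 0.100). These also rest on single libraries, since the SD was 0.042 for Junb and 0.089 for Fosl2 without uterus library 1, and 0.087 for Jun without uterus library 3. Fos was highest in uterus library 1 and lowest in library 2. Junb was likewise highest in library 1, but its other 3 uterus libraries lay within 49.4 to 52.2 CPM. Fosb and Fosl1 averaged under 10 CPM in uterus, where counting error weighs more.

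The genes whose library pattern lay nearest to that of Fos were sought among 10373 genes of 5 CPM or more in both organs. Likeness was the mean absolute difference of log2 CPM, centred within each organ, over the 8 libraries. It was 0.237 for Npas4, 0.246 for Junb, 0.257 for Btg2, 0.284 for Nr4a1 and 0.286 for Egr1, beside a median of 0.498 over all these genes. A gene without any deviation would have 0.486. Npas4, an activity-dependent transcription factor of neurons, had 16.2, 13.8, 16.4 and 11.9 CPM in uterus libraries 1 to 4, against 38.8, 36.1, 14.8 and 13.3 CPM in brain libraries 1 to 4. Egr1, a zinc finger factor induced by growth factors and synaptic activity, had 227, 54.2, 67.3 and 59.2 CPM in uterus, against 268, 208, 156 and 123 CPM in brain. Both shared with Fos a higher level in brain libraries 1 and 2 than in 3 and 4, and Egr1 also shared the high uterus library 1. Such sharing follows from the way these genes were chosen. Nearest to Jun were Plxnb1 (0.020), Zmym1 (0.036) and Mfsd12 (0.036), beside a median of 0.130 and 0.110 for a gene without deviation.

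The mean deviation of the 18 other immediate early genes from their organ mean (log2 scale) was 0.29, 0.22, -0.17 and -0.34 in brain libraries 1 to 4. For the 7 members it was 0.30, 0.23, -0.22 and -0.31 in the same libraries. Single genes differed, with large deviations for Egr2 (0.74, 0.95, -0.55 and -1.14) and small ones for Sgk1 (-0.07, 0.08, 0.08 and -0.09). Ier3, Klf4, Klf6, Sgk1 and Ctgf did not share the signs of the mean in brain. Among the members, Fosl1, Jun and Jund did not. In uterus libraries 1 to 4 the other immediate early genes deviated on average by 0.18, 0.03, -0.09 and -0.12, and the members by 0.03, -0.07, 0.03 and 0.01. The mean deviation of the 6 neuronal markers stayed within -0.04 to 0.02 in brain, but single markers moved more. In brain library 1 Slc17a7 deviated by -0.21, Tubb3 by -0.20 and Rbfox3 by -0.07. Gad1 deviated there by 0.13, Syt1 by 0.06 and Snap25 by 0.02. Summed astrocyte and oligodendrocyte markers were 8328 to 8873 CPM in brain. The 7 microglia and leukocyte markers deviated on average by 0.20, -0.11, -0.05 and -0.04 in brain libraries 1 to 4. In brain library 1 Ptprc deviated by 0.78, Cd68 by 0.27, Adgre1 by 0.27 and Cx3cr1 by 0.21. P2ry12 deviated there by 0.004, Tmem119 by -0.04 and Ncr1 by -0.12. Blood cell markers, mainly haemoglobin genes, deviated on average by -1.23, 0.72, -0.22 and 0.73, a different order from that of Fos. Mitochondrially encoded genes took 5.54, 3.03, 3.87 and 5.04% of counts in uterus libraries 1 to 4, against 4.73, 5.94, 5.27 and 4.70% in brain libraries 1 to 4. Their share was highest in uterus library 1 and lowest in uterus library 2, as was Fos in uterus, but in brain library 2 was highest. The part of these measures in the values of the members was not tested.

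**Figure D4:**
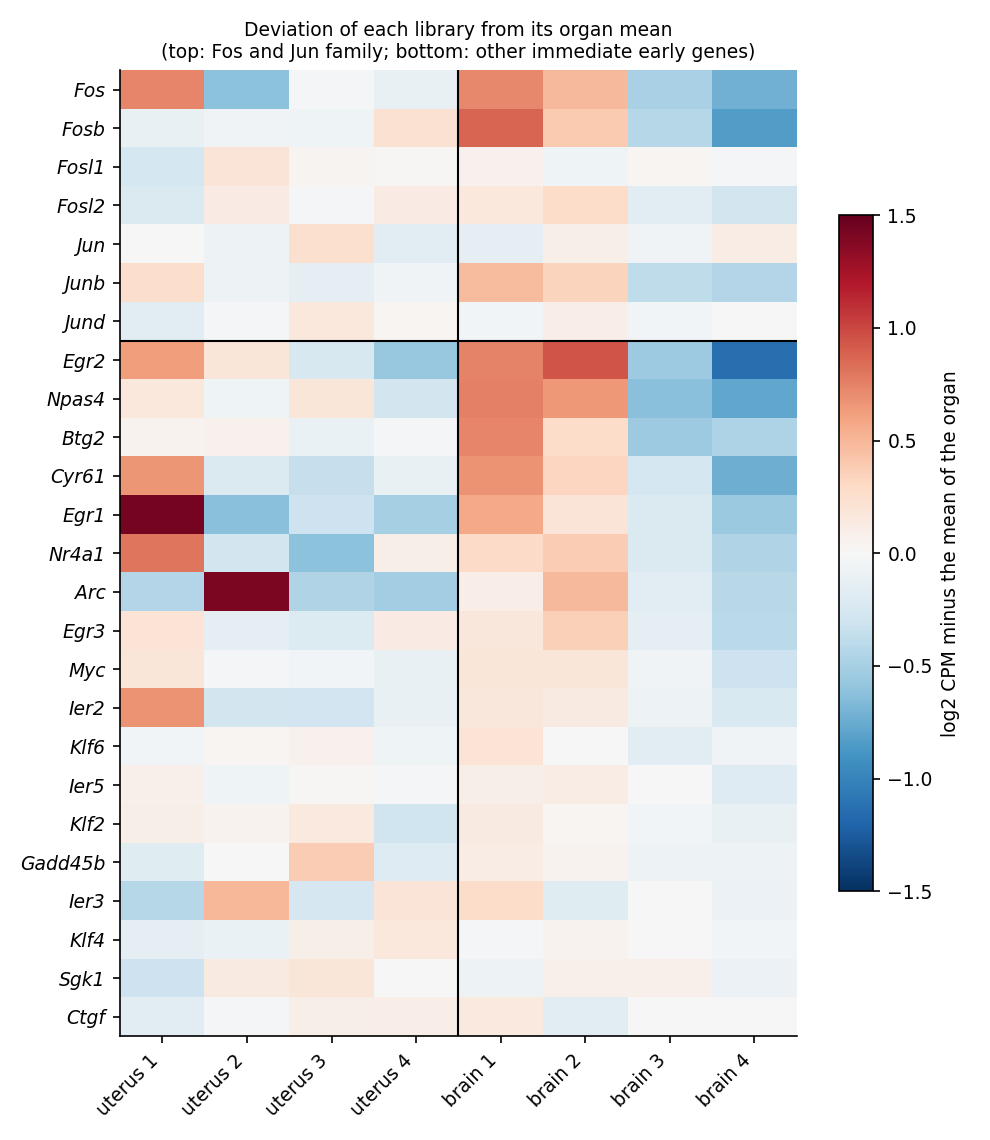
Deviation of log2 CPM from the mean of the organ (colour scale) for the 7 members (top block) and 18 other immediate early genes (bottom block), with uterus libraries left and brain libraries right. Fos, Fosb, Junb, Npas4 and Egr1 are above their organ mean in brain libraries 1 and 2 and below it in 3 and 4, whereas Jun and Jund vary less than these in brain. Ier3, Klf4, Klf6, Sgk1 and Ctgf do not share this pattern.

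The 7 lists of genes around AP-1 were read in the same fit, by counts and medians only. The counts are to be read beside all genes tested, of which 43.5% were higher in uterus and 43.6% lower. A split near these shares shows nothing particular to a list. Of the 8 ATF, BATF and JDP2 factors, which pair with Jun proteins or replace Fos, 5 were higher in uterus, 2 were lower and 1 did not pass, with a median log2 fold change of 1.69 beside 0.012 for all genes. Batf (5.28 ± 0.25), Batf2 (4.16 ± 0.41), Batf3 (2.40 ± 0.23), Atf3 (3.21 ± 0.31) and Atf7 (0.99 ± 0.06) were the higher ones. Batf, Batf2, Batf3 and Atf3 averaged 4.54, 2.20, 3.04 and 9.15 CPM in uterus, and 0.114, 0.121, 0.573 and 0.990 CPM in brain. The list median rests largely on these genes of low level. Atf7 averaged 103 CPM in uterus and 51.8 CPM in brain. The BATF factors act in lymphoid and myeloid cells, and 7 microglia and leukocyte markers summed to 188 to 223 CPM in uterus and 101 to 123 CPM in brain. Of these markers Ptprc, Cd68, Adgre1, Ncr1 and Tmem119 were higher in uterus (Tmem119 at 56.6 to 86.0 CPM, against 17.9 to 19.4 CPM in brain), and Cx3cr1 (-1.38 ± 0.10) and P2ry12 (-4.69 ± 0.13) were lower. Their part in the BATF values was not tested. Jdp2, a repressor that dimerizes with Jun, averaged 11.3 ± 0.730 CPM in uterus and 31.7 ± 1.91 CPM in brain (-1.49 ± 0.07). Atf2, the partner of Jun at the TGACATCA type of site, averaged 60.4 ± 1.51 CPM in uterus and 130 ± 4.10 CPM in brain (-1.11 ± 0.04). Atf4 averaged 154 ± 22.8 CPM in uterus and 136 ± 26.2 CPM in brain and did not pass.

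Of the 9 MAF and BACH factors, basic leucine zipper proteins related to AP-1, 4 were higher in uterus, 4 were lower and Mafg did not pass, with a median of -0.03. Maf averaged 84.5 CPM in uterus and 32.9 CPM in brain (1.36 ± 0.12), and Mafk, a small MAF lacking a transactivation domain, ran from 19.8 to 24.1 CPM in uterus and from 9.18 to 10.8 CPM in brain (1.18 ± 0.09). Bach2, a repressor best known from lymphocytes, averaged 6.08 CPM in uterus and 14.9 CPM in brain (-1.30 ± 0.12). Under upper-quartile scaling the list split 5 higher to 3 lower.

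Among 18 MAP kinase inputs, the kinases that phosphorylate Jun and Fos proteins or induce their genes, 4 were higher in uterus, 11 were lower and 3 did not pass, with a median of -0.21. Mapk10, the JNK isoform typical of neurons, averaged 1.49 ± 0.496 CPM in uterus and 379 ± 7.16 CPM in brain (-7.99 ± 0.20). Map2k1, which activates the ERK kinases, averaged 57.1 ± 2.16 CPM in uterus and 273 ± 3.79 CPM in brain (-2.26 ± 0.05). Rps6ka2, a kinase downstream of ERK, averaged 15.9 ± 1.70 CPM in uterus and 74.9 ± 2.66 CPM in brain (-2.23 ± 0.08). Map3k1, which acts upstream of JNK, was higher in uterus at 46.0 ± 2.83 CPM, against 24.8 ± 4.48 CPM in brain (0.90 ± 0.12), as were Mapk7, Mapk13 and Rps6ka3. The 3 that did not pass were Mapk3, Map2k2 and Mapk12. The split depended on scaling, with 7 higher and 8 lower under upper-quartile and library-size scaling.

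The 15 factors that drive transcription of immediate early genes (SRF and its partners, CREB with its coactivators, and MEF2) split evenly, with 7 higher in uterus, 7 lower and Creb1 not passing. Their median was 0.08 and their mean -0.06, so the sign of the list depends on the summary. Elk3, a partner of SRF at the CArG box, averaged 92.2 ± 4.08 CPM in uterus and 10.0 ± 0.518 CPM in brain (3.20 ± 0.06). Mef2c, which acts in muscle and neurons, averaged 58.0 CPM in uterus and 420 CPM in brain (-2.86 ± 0.07). Crtc1, a coactivator of CREB, averaged 40.8 CPM in uterus and 193 CPM in brain (-2.24 ± 0.06).

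Of 10 genes that restrain AP-1, 3 were higher in uterus, 6 were lower and Rfwd2 did not pass, with a median of -0.37 and a mean of 0.12, again of opposite sign. The 3 higher ones were Zfp36, Zfp36l1 and Zfp36l2, whose proteins bind and destabilize AU-rich mRNAs such as that of Fos. Zfp36 averaged 54.8 ± 17.6 CPM in uterus and 3.65 ± 0.640 CPM in brain (3.91 ± 0.23), and Zfp36l1 averaged 81.5 CPM in uterus and 10.4 CPM in brain (2.97 ± 0.10). Zfp36l2 averaged 139 CPM in uterus and 35.8 CPM in brain (1.95 ± 0.06). Zfp36 was 80.9 CPM in uterus library 1 and 43.8 to 49.4 CPM in the other 3, so that it was high in the library where Fos was high. Fbxw7, a ubiquitin ligase subunit that marks Jun for degradation, averaged 41.4 CPM in uterus and 204 CPM in brain (-2.30 ± 0.14). Under upper-quartile scaling 4 were higher and 4 lower.

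Of the 18 other immediate early genes, 9 were higher in uterus, 6 were lower and 3 did not pass, with a median of 0.35. Myc, a growth regulator, averaged 130 ± 11.7 CPM in uterus and 3.72 ± 0.592 CPM in brain (5.12 ± 0.12). Arc, a synaptic protein gene, averaged 3.17 ± 2.59 CPM in uterus and 160 ± 43.4 CPM in brain (-5.65 ± 0.44). Its uterine mean rests on library 2, at 7.06 CPM against 1.82 to 1.91 CPM in the other 3, and the log2 fold change was -6.41 without that library. Egr3 averaged 1.09 ± 0.155 CPM in uterus and 41.2 ± 9.37 CPM in brain (-5.23 ± 0.20). Egr1, Egr2 and Ier5, like Fos and Junb, did not pass. Under upper-quartile scaling 10 were higher and 4 lower.

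Of 16 genes known as AP-1 targets, 13 could be tested. Of these, 10 were higher in uterus (43.5% of all genes) and 2 were lower (43.6%). Mmp9 did not pass, and the median was 1.54. Mmp3, a matrix metalloproteinase, had 17.8, 23.2, 17.6 and 4.27 CPM in uterus libraries 1 to 4 and 0 counts in all brain libraries. It was at least 865-fold higher in uterus, against a floor of 3 counts over the 4 brain libraries together. Timp1, an inhibitor of such enzymes, averaged 31.9 CPM in uterus and 0.575 CPM in brain (5.79 ± 0.15), and Cd44, a hyaluronan receptor, 91.7 CPM in uterus and 5.91 CPM in brain (3.95 ± 0.10). Spp1, the secreted phosphoprotein osteopontin, averaged 14.2 CPM in uterus and 44.5 CPM in brain (-1.65 ± 0.12), and Hbegf, a growth factor of the EGF family, 6.97 CPM in uterus and 16.9 CPM in brain (-1.27 ± 0.08). Mmp10, Mmp13 and Il6 were too low to be tested. Markers of stroma, microglia and leukocytes, given above, also differed between the organs, and their part in the levels of these genes was not tested.

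**Figure D5:**
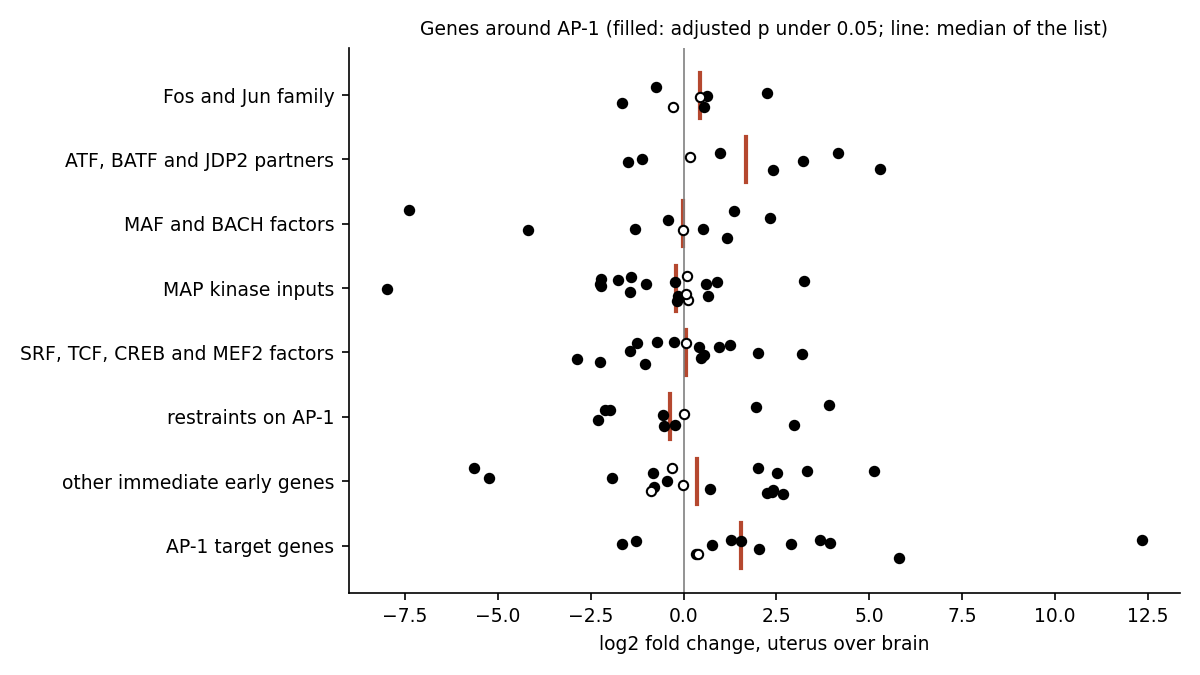
Log2 fold change, uterus over brain, of each gene in the 7 lists around AP-1 and of the 7 members, one row per list, with filled points for an adjusted p under 0.05 (edgeR) and a line at the median of the list. Medians run from -0.37 for the restraints to 1.69 for the ATF, BATF and JDP2 factors, and the outermost points of Mmp3 (right) and Nrl (left of the MAF and BACH row) are fitted values of genes with 0 counts in one organ, which are no bounds.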

How the data were processed

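The authors deposited raw read counts per Ensembl gene, in whole numbers, for 4 uterus and 4 brain libraries, each from 1 animal per the labels' protocols. The kit was stranded and depleted ribosomal RNA. Per the submitters' processing notes, FastQC, HISAT2 2.0.3, featureCounts and edgeR were used on GRCm38.p5. For annotation release, strand setting and multimapping reads, the sources used here give nothing. Of 19884 genes, 894 had 0 counts in all libraries, and 19808 identifiers were found in GENCODE M21.

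The filterByExpr function, by organ, dropped genes of low count. Counts were scaled by TMM (factors 1.07 to 1.11 in uterus, 0.907 to 0.924 in brain) and tested with edgeR 4.0.16 (R 4.3.3), quasi-likelihood F test, two-sided, Benjamini-Hochberg adjusted over 16074 genes at 0.05, and with glmTreat against 2-fold. The p-values set the difference between organs against the spread between these libraries, which the fit takes as shared by both organs. For some members it was unequal, as for Fosb (SD of log2 CPM 0.774 in brain and 0.158 in uterus). Other settings tried were scaling by RLE, by the upper quartile or by library size alone, other filters, a prior count of 0.5 (main 2), a replicate block, other exon lengths, DESeq2 1.42.0, limma-voom (limma 3.58.1), a threshold of 0.01, and leaving out each library. RPKM used the union of annotated exons. The 3-count floor for genes at 0 covers counting error only. Transcripts near-identical to members (98% over at least 150 nt, BLAST+ 2.17.0) were found only in the overlapping genes named.

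Members and lists were chosen with earlier results of these data known. From each list the rule named the 3 called genes of largest change at 10 CPM or more, and 1 against the sign of the list median. It also named the 5 genes most like Fos and the 3 most like Jun. Other genes complete counts of 5 or fewer. Simulated counts with known changes were used to test the fit.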

Additional observations from a re-analysis of the deposited data

Results flagged for a closer look

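Fosb in uterus library 4, at 4.24 CPM, lay apart from the other 3 uterus libraries, which held 3.32 to 3.46 CPM. The gap to the nearest library was 0.854 of the whole range, above Dixon's 95% critical value for 4 values. Of 14 groups of libraries examined (7 members in each organ) this was the only one past that limit, and chance alone flags about 1 in 20.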

How the results depend on the processing

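Fosb lost its call in the 2-fold test under upper-quartile scaling (-1.41), library-size scaling (-1.41), the replicate block (-1.52) and the fit with brain libraries 2 to 4 and uterus libraries 1 and 3 only (-1.39), leaving 0 members lower by that test. Leaving out single libraries gave -1.89 to -1.30, and 0 to 1 members lower. Junb gained a call under upper-quartile (0.69) and library-size scaling (0.69), the replicate block (0.48), limma-voom (0.49) and that reduced fit (0.69), with 0.30 to 0.62 over single libraries left out. Fos changed sign in the reduced fit (0.33), without passing, but that fit leaves out its highest brain and its lowest uterus library. Both scalings moved the median of all genes from 0.012 to 0.27, so differences of that size depend on scaling. They gave 7 MAP kinase inputs higher in uterus, not 4. Fosl2 took 85.5% of the Fos family in uterus and 47.3% in brain by CPM without length, and 24.2% in brain by the longest transcript. Jund took 26.7% of the Jun family in uterus and 25.2% in brain by CPM. The mean share of Fos by CPM was 11.2% in uterus and 32.6% in brain, so Fos no longer led in brain. With single libraries left out, the SD of log2 CPM in uterus ran from 0.321 to 0.681 for Fos, 0.032 to 0.187 for Fosb, 0.096 to 0.235 for Fosl1, 0.089 to 0.200 for Fosl2, 0.087 to 0.213 for Jun and 0.042 to 0.214 for Junb, and in brain from 0.020 to 0.086 for Jund. The cause of these changes was not tested. Of 570 tested log2 fold changes of members and named genes under the alternatives, 555 kept their direction and side of the threshold. This total includes 414 values of 23 list genes that were named for large changes, and all 414 kept theirs. The values that changed were all of members. Fosb lost its 2-fold call in 7, Junb gained a call in 7, and Fos reversed in 1. Whether uterus and brain libraries of equal number share an animal is not stated in the sources used here. Their deviations correlated at -0.048, 0.00186, 0.083 and 0.0735 for numbers 1 to 4. Libraries 3 and 4 were nearest to their own number, but the highest value, 0.1, joined uterus library 2 and brain library 1. These values cannot decide the pairing, since deviations in unlike organs of 1 animal need not correlate. The block gave 13846 genes called, against 13989 without it. Low members are limited by counts.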
